A study of Mus musculus with 24 samples.

Results

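Transcripts of 8 genes that regulatory T cells are known for were followed in tumours grown from CT26.WT, a mouse colon carcinoma line, in mice on diets low or high in methionine. The members are Foxp3, Ikzf2, Ikzf4, Il2ra, Tnfrsf4, Tnfrsf9, Tnfrsf18 and Ccr8. They were taken as the rows of the deposited log2 table that carry these names, and all 8 of the 8 were found among 55202 gene names. All 8 had counts in at least some libraries and were among the 38019 genes tested, so none was lost to a filter on low values.

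The grafts fall into 4 groups of 6 RNA-seq libraries. Balb/c mice received 0.172% methionine (a deficient diet) or 0.86% methionine (a high diet), and NSG mice received the same pair of diets. All hosts were male, were labelled wild-type in genotype and had been on their diet for 3 to 4 weeks when tumours were collected. Their age is not given in the sources used here. Balb/c mice have an intact immune system, and CT26.WT comes from this strain. NSG mice, as background, carry a mutation of Prkdc and a null allele of Il2rg, lack T, B and NK cells, and are of another strain. Host immunity, host strain and the match of graft and host therefore cannot be told apart in any comparison of hosts below. Whether every library had its own animal is not stated in the labels, so the p-values speak for the spread among these libraries, which may be technical in part.

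Libraries held 31339425 to 57162217 assigned counts. Of 276 pairs of libraries, 19 with 23 and 20 with 24, all from Balb/c hosts on 0.86% methionine, stood out as nearly identical, with a chi-square per degree of freedom of 1.24 and 1.19 against at least 3.17 elsewhere. Averaging each of the pairs left 4 tumours for Balb/c mice on 0.86% and 6 for every other combination. Members whose call changed with the libraries kept apart are named below. Tumour 17 (Balb/c, 0.172%) stood apart from the other Balb/c tumours in T and NK cell genes. Its 9 NK cell markers summed to 98.9 normalised counts, against 1167 to 7046 in the 9 remaining tumours of this host, and its Cd3e had 5.26 normalised counts. Of the epithelial markers that bear on the colon carcinoma label, Krt18 had 372 to 2140 normalised counts and Cdx2 had 17.9 to 153 over all tumours. Vil1 had at most 5.52 and Cdx1 was at 0 in 3 of the 4 groups. Other epithelial markers varied widely between tumours, with Krt20 at 1128 to 32791 normalised counts, Krt8 at 56.5 to 29746 and Epcam at 0 to 77.0.

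Regulatory T cells are CD4+ T cells that restrain other immune cells, and tumours often hold many of them. Foxp3 is the transcription factor that defines the lineage, and Ikzf2 (Helios) and Ikzf4 (Eos) are zinc finger factors of the Ikaros family that act with it. Il2ra (CD25) is the alpha chain that gives the IL-2 receptor its high affinity, and IL-2 signals on through STAT5 to sustain Foxp3. Tnfrsf4 (OX40), Tnfrsf9 (4-1BB) and Tnfrsf18 (GITR) are co-stimulatory receptors of the TNF receptor family, and Ccr8 is a chemokine receptor carried by regulatory T cells inside tumours. Activated effector T cells also express several of these genes. In bulk tissue, fewer cells of a type and less RNA per cell cannot be told apart.

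The stretches around the transcription starts of the 4 members that differed between hosts are shown so that the sequences of these members can be set side by side. They are from RefSeq on GRCm38.p6, run from 250 bases before to 50 bases after the start, and were available for 6 of the 8 members (not Ikzf2 and Ikzf4), with more than 1 start for Foxp3 and Tnfrsf9. Capitals mark matches, on either strand, to STAT5 (TTCNNNGAA), NFAT (GGAAA, or TTTCC on the other strand), AP-1 (TGANTCA), RUNX (TGTGGT), forkhead (TGTTTAC) and NF-kB (GGG, then any 2 bases, then TTTCC) letters.
Foxp3 chrX:7580233-7580532 (+): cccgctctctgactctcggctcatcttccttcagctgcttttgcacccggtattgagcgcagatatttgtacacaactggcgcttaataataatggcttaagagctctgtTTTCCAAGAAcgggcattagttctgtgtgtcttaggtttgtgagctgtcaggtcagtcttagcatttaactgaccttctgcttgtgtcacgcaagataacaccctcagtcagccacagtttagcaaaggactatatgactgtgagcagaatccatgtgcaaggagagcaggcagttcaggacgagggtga
Il2ra chr2:11642542-11642841 (+): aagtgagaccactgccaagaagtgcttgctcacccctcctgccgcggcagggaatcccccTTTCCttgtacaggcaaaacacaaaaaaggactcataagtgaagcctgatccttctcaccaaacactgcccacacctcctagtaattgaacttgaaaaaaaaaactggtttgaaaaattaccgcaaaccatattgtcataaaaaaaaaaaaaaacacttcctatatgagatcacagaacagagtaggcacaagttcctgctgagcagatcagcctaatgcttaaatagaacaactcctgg
Tnfrsf18 chr4:156026072-156026371 (+): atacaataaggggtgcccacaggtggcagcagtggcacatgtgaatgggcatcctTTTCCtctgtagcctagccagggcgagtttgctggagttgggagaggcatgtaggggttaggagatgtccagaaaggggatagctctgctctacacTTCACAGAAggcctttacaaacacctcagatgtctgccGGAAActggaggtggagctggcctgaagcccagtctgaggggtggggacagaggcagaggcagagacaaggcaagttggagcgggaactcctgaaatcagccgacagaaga
Tnfrsf9 chr4:150927749-150928048 (+): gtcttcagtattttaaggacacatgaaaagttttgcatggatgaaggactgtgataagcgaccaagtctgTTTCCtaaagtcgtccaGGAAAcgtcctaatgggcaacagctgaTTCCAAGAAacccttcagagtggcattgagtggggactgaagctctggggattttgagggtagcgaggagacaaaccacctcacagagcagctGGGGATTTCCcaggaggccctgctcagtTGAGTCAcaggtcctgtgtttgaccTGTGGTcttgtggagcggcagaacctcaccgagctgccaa

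The STAT5 letters lay at -139 from the start in the Foxp3 window, at -99 in the Tnfrsf18 window and at -136 in the Tnfrsf9 window, counted to the first letter of the match. They occur in 8.30% of the 32851 RefSeq mouse promoter windows of 300 bases. For Foxp3 and Tnfrsf9 the window shown is the one of 2 that holds these letters. The other window of each (chrX:7579426-7579725 for Foxp3, chr4:150919905-150920204 for Tnfrsf9, both on the + strand) held the NFAT letters alone, so the share per window cannot be set against a count of genes. In the Foxp3 window the NFAT letters at -140 overlap the STAT5 match. The Il2ra window held only the NFAT letters, at -190, which 61.3% of windows hold. The Tnfrsf9 window also held AP-1 letters at -15 (7.81% of windows), RUNX letters at 11 (16.8%) and NF-kB letters at -43 (1.63%), the last of which contain the NFAT match at -38. The forkhead letters (3.65% of windows) were in none of the 8 windows of the 6 members. These matches describe the letters of the windows and say nothing about binding.

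The host comparison asks how the members differ between tumours in immunocompetent Balb/c mice and in NSG mice, on each diet. Foxp3, Il2ra and Tnfrsf18 were higher in Balb/c tumours on either diet, and Tnfrsf9 was higher in Balb/c tumours on 0.172% methionine. Differences are Balb/c minus NSG on the deposited log2 scale, where abundant genes read much like a log2 fold change and genes with few counts read smaller than it. A gene is called when its Benjamini-Hochberg adjusted p from limma over 38019 genes is under 0.05. On 0.172% methionine 4 of the 8 members were called higher, where 1.44% of all genes tested were. On 0.86% methionine 3 of the 8 were called higher, where 2.05% of all genes tested were. With all 24 libraries kept apart 5 of the 8 were called higher on 0.86%, with Ikzf2 and Tnfrsf4 added. That fit counts each of the near-identical libraries by itself, and its calls over all genes, in either direction, rose from 963 to 1824. No member was called lower on either diet, where 0.652% (0.172% methionine) and 0.484% (0.86% methionine) of all genes were. The members' median difference was 0.73 on 0.172% and 0.74 on 0.86% methionine, and that of all genes tested was 0.00 on each diet. The second median lies near 0 largely through the scaling of libraries and the many genes with few counts. Of all deposited values, 51.7% stand for a count of 0.

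**Figure D1:**
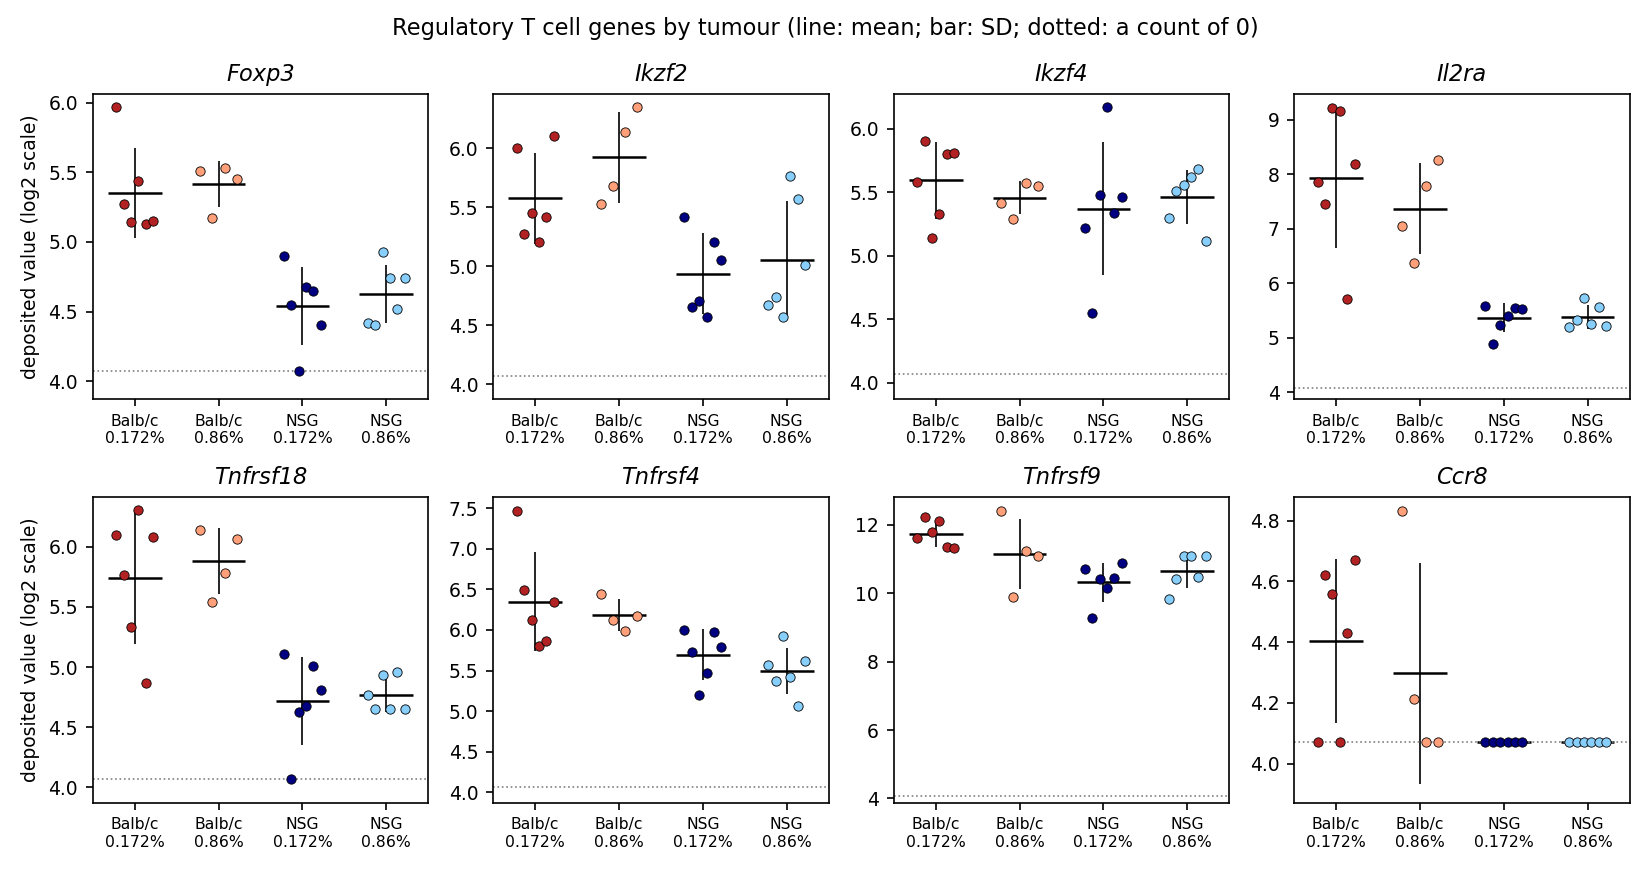
Deposited log2 values (y axis; 4.07 stands for a count of 0, dotted line) of the 8 regulatory T cell genes in each tumour, by host and diet (x axis); points are tumours, lines group means and bars SDs. Foxp3 separates every Balb/c tumour from every NSG tumour, Ikzf4 separates none, and Ccr8 is at a count of 0 in all 12 NSG tumours.

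Foxp3 is the member whose levels separated the hosts without overlap. In Balb/c tumours on 0.172% methionine it had a lowest, median and highest normalised count of 9.47, 11.1 and 33.6. On 0.86% methionine the 4 Balb/c tumours had 18.3, 10.3, 18.8 and 16.6. In NSG tumours it had 0, 2.29 and 5.65 on 0.172% and 0.912, 2.68 and 6.15 on 0.86% methionine. Every one of the 10 Balb/c tumours lay above all 12 NSG tumours, and the level was low throughout. The means were 15.2 ± 9.37 in Balb/c tumours on 0.172% (SD, n = 6), against 2.36 ± 1.97 in NSG tumours on 0.172% (SD, n = 6). On 0.86% they were 15.97 ± 3.902 in Balb/c tumours (SD, n = 4), against 2.85 ± 2.05 in NSG tumours (SD, n = 6). Over both diets the mean was 5.95 times as high in Balb/c tumours as in NSG tumours.

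On the log2 scale the Foxp3 difference was 0.81 ± 0.15 on 0.172% methionine (SE; limma adjusted p = 0.00198) and 0.79 ± 0.16 on 0.86% (SE; limma adjusted p = 0.0066). It stayed called under each of the 34 alternatives run for either diet, with adjusted p up to 0.0339. In the NSG groups Foxp3 had 14 and 18 counts in all on 0.172% and 0.86%. Foxp3 lies on chrX:7573644-7595245 (+ strand, mm10, GENCODE M21), and 853 of its 4577 exonic bases overlap exons of Flicr on the same strand, while Ccdc22, Gm36995 and Ppp1r3f overlap it on the opposite strand. Strandedness of the libraries is not settled, so these few reads are uncertain. Flicr averaged 8.27 and 7.02 normalised counts in Balb/c tumours on 0.172% and 0.86%, against 9.11 and 8.76 in NSG tumours on 0.172% and 0.86%.

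The Ikaros factors that accompany Foxp3 did not pass the test in either host comparison. Ikzf2 averaged 21.6 ± 12.3 normalised counts in Balb/c tumours on 0.172% (SD, n = 6) and 33.5 ± 15.3 on 0.86% (SD, n = 4), against 7.16 ± 5.49 and 10.3 ± 10.1 in NSG tumours (SD, n = 6 each). Its difference was 0.64 ± 0.22 on 0.172% (SE; limma adjusted p = 0.137) and 0.87 ± 0.24 on 0.86% (SE; limma adjusted p = 0.0527). The second value passed the threshold in 9 of 34 alternatives, among them the fit with all 24 libraries kept apart. Also among them were the fits without tumour 1, 10, 11 or 18, at limma adjusted p of 0.0197 to 0.0485 for these 4. Tumours 1 and 18 are not in the 0.86% comparison but share its estimate of spread. Of the 10 Balb/c tumours 4 lay above all NSG tumours. Ikzf4 averaged 21.5 ± 8.51 and 17.03 ± 3.17 in Balb/c tumours on 0.172% and 0.86%, against 17.3 ± 13.6 and 17.4 ± 5.31 in NSG tumours on 0.172% and 0.86% (SD). No Balb/c tumour lay above all NSG tumours for Ikzf4, and the 95% intervals of its difference ran between -0.15 and 0.60 on 0.172% and between -0.43 and 0.42 on 0.86%.

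The other 3 genes of this family were looked at beside them. Ikzf3 (Aiolos), which lymphocytes express, was at a count of 0 in all NSG libraries and averaged 32.8 ± 18.5 normalised counts in Balb/c tumours on 0.172% and 28.9 ± 9.37 on 0.86% (SD). It was called on both diets, with limma adjusted p of 2.70e-07 and 2.81e-06. Ikzf1 (Ikaros), which many blood cells express, was called on 0.86% methionine, where its difference was 1.04 ± 0.20 (SE; limma adjusted p = 0.00348). On 0.172% it was not called, at 0.65 ± 0.18 (SE; limma adjusted p = 0.0573). This does not show that its host effect depends on diet, since the difference between the diet effects was -0.39 ± 0.27 (SE; limma adjusted p = 0.821). Ikzf5 averaged 47.9 and 33.8 in Balb/c tumours on 0.172% and 0.86%, against 54.7 and 51.2 in NSG tumours, and was called on neither diet.

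Il2ra, the alpha chain of the IL-2 receptor, had the largest host difference of the 8 members on each diet. In Balb/c tumours on 0.172% methionine it had 24.2, 229 and 560 normalised counts (lowest, median, highest). The 4 Balb/c tumours on 0.86% had 101, 52.5, 189 and 275. In NSG tumours it had 5.54, 16.97 and 20.3 on 0.172% and 10.9, 12.9 and 24.6 on 0.86% methionine. Within each diet all Balb/c tumours lay above all NSG tumours, and over both diets 9 of 10 did, the exception being tumour 17 at 24.2. Tumours 15 and 16 were highest, at 560 and 535.

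The Il2ra difference was 2.56 ± 0.44 on 0.172% methionine (SE; limma adjusted p = 0.00209), and 3.01 without tumour 17. On 0.86% it was 1.98 ± 0.49 (SE; limma adjusted p = 0.0319). The call on 0.86% was lost without tumour 7, 8, 10, 11, 12, 19/23, 21 or 22, at adjusted p of 0.0516 to 0.128, and the difference without each of these was 1.69 to 2.09. It was also lost with no filter and with voom on the recovered counts. The call on 0.172% was kept under each of 34 alternatives.

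The other chains of the receptor differed between hosts as well. Il2rb, the beta chain shared with the IL-15 receptor, averaged 917 ± 603 and 658 ± 271 normalised counts in Balb/c tumours on 0.172% and 0.86%, against 4.83 ± 2.93 and 4.36 ± 0.611 in NSG tumours (SD). Its difference was 4.60 on 0.172% (limma adjusted p = 2.33e-05) and 4.56 on 0.86% (limma adjusted p = 9.28e-05). Il2rg, the common gamma chain that NSG hosts lack in working form, still had 627 to 1571 normalised counts in NSG tumours, against 1265 to 2137 in Balb/c tumours. Its difference was 0.73 on 0.172% (limma adjusted p = 0.0193) and 0.75 on 0.86% (limma adjusted p = 0.0283). Whether these reads come from grafted or from host cells cannot be told apart. These were the 2 of 10 genes of IL-2 receptor signalling called on each diet.

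Among the TNF receptor family members, Tnfrsf18 differed between hosts on both diets. In Balb/c tumours on 0.172% methionine it had 5.26, 32.2 and 48.9 normalised counts (lowest, median, highest). The 4 Balb/c tumours on 0.86% had 41.1, 19.6, 26.5 and 37.7. In NSG tumours it had 0, 3.75 and 9.04 on 0.172% and 2.74, 3.36 and 6.63 on 0.86% methionine. Tumour 17 alone among the 10 Balb/c tumours lay within the NSG range. The difference was 1.03 ± 0.20 on 0.172% (SE; limma adjusted p = 0.00332) and 1.11 ± 0.22 on 0.86% (SE; limma adjusted p = 0.00419), and both calls were kept under each of 34 alternatives. Tnfrsf18 shares 414 of its 1524 exonic bases with the antisense gene Gm16008, which averaged at most 1.05 normalised counts in any group.

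Tnfrsf9 was by far the most abundant member and was abundant in NSG tumours too. In Balb/c tumours on 0.172% methionine it had 2518, 3326 and 4784 normalised counts (lowest, median, highest). The 4 Balb/c tumours on 0.86% had 5380.0, 921, 2379 and 2129. In NSG tumours it had 585, 1341 and 1878 on 0.172% and 875, 1761 and 2166 on 0.86% methionine. The hosts did not overlap on 0.172% and overlapped on 0.86%, where the averaged tumour of libraries 20 and 24 was low and that of libraries 19 and 23 was the highest of all. Per kilobase of exon Tnfrsf9 averaged 1283 and 993 normalised counts in Balb/c tumours on 0.172% and 0.86%, against 485 and 615 in NSG tumours. In the same NSG tumours the T cell gene Cd3e had at most 0.915 normalised counts.

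The Tnfrsf9 difference between hosts was 1.42 ± 0.35 on 0.172% methionine (SE; limma adjusted p = 0.0358) and 0.49 ± 0.39 on 0.86% (SE; limma adjusted p = 0.698). The call on 0.172% was lost without tumour 2, 3, 4, 5, 13, 14, 15 or 16, at adjusted p of 0.0552 to 0.0868 and differences of 1.21 to 1.45, and with no filter, with voom and with all 24 libraries kept apart. That Tnfrsf9 passed on 1 diet and not on the other does not show that the host effect depends on diet, since the difference between the diet effects was 0.93 ± 0.52 (SE; limma adjusted p = 0.816).

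Tnfrsf4 lay between these patterns. It averaged 58.7 ± 44.1 and 43.5 ± 9.68 normalised counts in Balb/c tumours on 0.172% and 0.86%, against 24.8 ± 9.44 and 18.6 ± 7.91 in NSG tumours (SD). Its difference was 0.65 ± 0.21 on 0.172% (SE; limma adjusted p = 0.119) and 0.69 ± 0.23 on 0.86% (SE; limma adjusted p = 0.147), although the hosts did not overlap on 0.86%. Tumour 13 held 145 normalised counts. Without it the 0.86% comparison, which does not contain that tumour but shares its estimate of spread, reached a limma adjusted p of 0.0344. The 0.86% comparison was also called with all 24 libraries kept apart and in a fit of the compared groups alone. Tnfrsf4 and Tnfrsf18 are neighbours on chromosome 4, 9551 bases apart.

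Ccr8 was close to the limit of detection. Its 8 counts in Balb/c tumours on 0.172% methionine came from 4 of 6 libraries and its 11 counts on 0.86% from 3 of 6 libraries, against 0 counts in all 12 NSG libraries. Of those 11 counts, 7 were in library 19 and 3 in library 23, which are averaged as 1 tumour, and 1 was in library 24. A count of 0 in a library allows up to 3 counts. The difference was 0.33 ± 0.11 on 0.172% (SE; limma adjusted p = 0.135) and 0.23 ± 0.12 on 0.86% (SE; limma adjusted p = 0.493). Tumour 19/23 had the most Ccr8 of the Balb/c tumours (4.90 normalised counts). Without it the 0.172% comparison reached a limma adjusted p of 0.029. That comparison does not contain tumour 19/23 but shares its estimate of spread, and its difference stayed at 0.33. The 0.172% comparison was also called with voom on the recovered counts.

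The hosts were also compared by overlap. On 0.172% methionine, every Balb/c tumour lay above every NSG tumour for 3 of the 8 members (Foxp3, Il2ra and Tnfrsf9), where 1.04% of all genes did so. On 0.86% this held for 4 of the 8 (Foxp3, Il2ra, Tnfrsf18 and Tnfrsf4), where 2.75% of all genes did so.

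**Figure D2:**
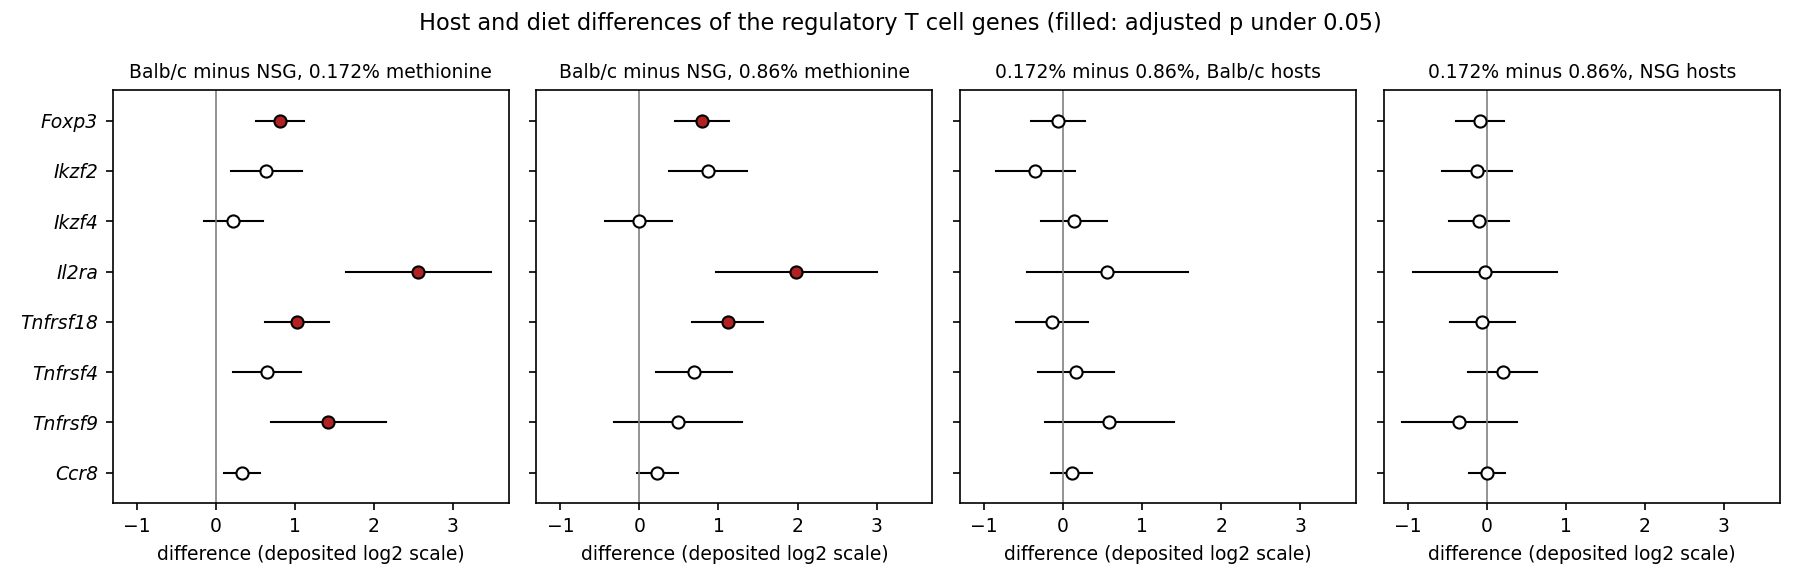
Differences of the 8 genes on the deposited log2 scale (x axis) with 95% intervals from limma, for Balb/c minus NSG on each diet and for 0.172% minus 0.86% methionine in each host; filled points have an adjusted p under 0.05. The filled points are Foxp3, Il2ra, Tnfrsf18 and Tnfrsf9 on 0.172% and the first 3 of these on 0.86%, and no diet difference is filled.

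Many other immune genes differed between the same hosts, and their part in the members' differences was not tested. Of 18 T cell markers, 16 were called higher on 0.172% and 14 on 0.86% methionine. Trbc1, a T cell receptor constant gene, averaged 208 and 145 normalised counts in Balb/c tumours on 0.172% and 0.86%, against 0.526 and 1.06 in NSG tumours. Cd4, the co-receptor of the lineage to which regulatory T cells belong and a gene of mouse myeloid cells as well, averaged 35.8 and 46.7 in Balb/c tumours on 0.172% and 0.86%, against 50.5 and 47.9 in NSG tumours, and was called on neither diet. All 9 NK cell markers were called higher on both diets. Their sum was 98.9 to 7046 in Balb/c tumours on 0.172% and 1167 to 3608 on 0.86%, against 22.1 to 56.5 and 15.7 to 40.6 in NSG tumours, with Ncr1 and Tbx21 at 0 in all NSG tumours.

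Markers of other cell types that can carry some of these receptors were counted in the same way. Endothelial markers were called higher for 2 of 6 genes on 0.172% and 4 of 6 on 0.86%, with Pecam1 at 1937 and 2546 normalised counts in Balb/c tumours on 0.172% and 0.86%, against 827 and 905 in NSG tumours. Their sum was 2990 to 6082 and 5183 to 9903 in Balb/c tumours on 0.172% and 0.86%, against 2023 to 3508 and 2086 to 3598 in NSG tumours. Of 8 mast cell markers Kit alone was called, on both diets, with differences of 1.25 and 1.14 on 0.172% and 0.86%. Of 9 dendritic cell markers Ccr7 alone was called and of 6 B cell markers Blk alone, both on 0.86%, and of 10 epithelial and colon markers Cdh1 alone, on 0.172%. No macrophage marker of 8 was called on either diet by limma, with 3 and 6 at an unadjusted p under 0.05 on 0.172% and 0.86%. Of all 38019 genes tested, 5215 and 4699 had such an unadjusted p on 0.172% and 0.86%.

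Most other genes known from regulatory T cells did not pass the test, and those that passed were higher in Balb/c tumours. Of 28 listed, 7 were called higher on 0.172% methionine, where 1.44% of all genes tested were, and 8 on 0.86%, where 2.05% were. On either diet 0 were called lower. Differences were above 0 for 23 of the 28 on 0.172% and for 25 on 0.86%. The 4 named below had the smallest adjusted p of the list on 0.172% methionine and do not stand for the rest. On 0.86% other called genes of the list had a smaller limma adjusted p than Icos (0.0111) and Ctla4 (0.0408). The list median was 0.35 on 0.172% and 0.46 on 0.86%, against 0.00 for all genes tested, which scaling and low counts hold near 0. Ctla4, an inhibitory receptor, averaged 115 ± 86.4 and 52.2 ± 43.5 normalised counts in Balb/c tumours on 0.172% and 0.86%, against 0.188 ± 0.461 and 0.601 ± 0.705 in NSG tumours (SD). Icos, a co-stimulatory receptor, averaged 80.0 ± 49.3 and 52.3 ± 29.8 in Balb/c tumours, against 2.65 ± 2.18 and 3.23 ± 2.66 in NSG tumours (SD). Klrg1, a receptor that NK and effector T cells also carry, averaged 151 and 89.4 in Balb/c tumours and was at 0 in all NSG tumours. Izumo1r (folate receptor 4) averaged 2.32 and 3.55 in Balb/c tumours and was likewise at 0 in all NSG tumours.

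The ligands of the member receptors showed no common direction between hosts. Il2, the ligand of the receptor that Il2ra completes, averaged 145 ± 26.0 and 144 ± 47.4 normalised counts in Balb/c tumours on 0.172% and 0.86%, against 159 ± 23.6 and 136 ± 11.3 in NSG tumours (SD). Its differences of -0.12 and 0.04 did not pass the test, with 95% intervals of -0.38 to 0.14 and -0.26 to 0.33. Tnfsf18, the GITR ligand, was lower in Balb/c tumours on 0.172%, at 3.59 ± 3.27 against 17.02 ± 10.7 in NSG tumours (SD; difference -0.70, limma adjusted p = 0.0253), and its difference on 0.86% was -0.43 (limma adjusted p = 0.321). Tnfsf9, the 4-1BB ligand, averaged 534 and 570.2 in Balb/c tumours on 0.172% and 0.86%, against 587 and 645 in NSG tumours, and was called on neither diet. Tnfsf4, the OX40 ligand, had differences of 0.51 and 0.85 on 0.172% and 0.86%, with limma adjusted p of 0.263 and 0.0539.

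For Ccr8 the ligands are Ccl1 and, in mice, Ccl8. Ccl1 was higher in Balb/c tumours on 0.86%, at 4.86 ± 2.86 normalised counts against 0.154 ± 0.378 in NSG tumours (SD; difference 0.68, limma adjusted p = 0.00295), and its difference on 0.172% was 0.35 (limma adjusted p = 0.122). Ccl8 averaged 2337 ± 1212 and 5016 ± 5692 in Balb/c tumours on 0.172% and 0.86%, against 2116 ± 719 and 1287 ± 714 in NSG tumours (SD), and was called on neither diet.

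The diet comparison asks whether methionine restriction moved these genes within a host. In Balb/c hosts 0 of the 8 members were called, where 0.00263% of all genes tested (1 gene) were. Without tumour 18 the test called 122 genes and again 0 members. In NSG hosts 0 of the 8 were called, where 0.00526% of all genes were. The difference between the diet effects gave 0 of 8, with 0% of all genes called. In each of these 3 comparisons 0 members had an unadjusted p under 0.05 by limma, and voom and the other alternatives called 0. Of the 38019 genes tested, 2843 in Balb/c hosts, 2554 in NSG hosts and 2447 for the difference had such an unadjusted p. With 8 members, 0 is near that share and does not set the members apart from other genes. Foxp3 differed by -0.06 in Balb/c hosts (95% interval -0.40 to 0.27) and by -0.09 in NSG hosts (95% interval -0.39 to 0.22). The groups overlapped for every member.

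In Balb/c hosts the largest differences were those of Tnfrsf9, at 0.59 ± 0.39, and Il2ra, at 0.56 ± 0.49 (SE), with limma adjusted p of 0.814 and 0.835. Il2ra averaged 287 ± 217 normalised counts in Balb/c tumours on 0.172% and 154 ± 98.2 on 0.86% (SD), and without tumour 17 its difference was 1.003 (limma adjusted p = 0.539). Without tumour 19/23 the Tnfrsf9 difference was 1.003 (limma adjusted p = 0.519). Ikzf2 differed by -0.35 ± 0.24 (SE; limma adjusted p = 0.825). In NSG hosts the members' differences ran between -0.35 (Tnfrsf9) and 0.20 (Tnfrsf4), with limma adjusted p of at least 0.852.

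The ratio of Foxp3 to Cd3 transcripts was compared between diets in Balb/c hosts. It was taken as log2 of the Foxp3 count over the summed Cd3d, Cd3e and Cd3g counts, each with 1 added. It is not a share of T cell transcripts, since NSG tumours averaged 2.61 Foxp3 normalised counts with each Cd3 gene at most 1.85. Outside tumour 13, Foxp3 ran from 9.47 to 18.8 while the Cd3 sum ran from 8.42 to 329, so the ratio mostly follows Cd3. Foxp3 held 36.8, 31.3, 9.90, 16.2, 113 and 2.99 normalised counts per 100 Cd3 counts in tumours 13 to 18 on 0.172% methionine. On 0.86% the 4 tumours held 12.3, 30.9, 27.9 and 11.4. Tumour 17, with few Cd3 counts, was highest, tumour 18, with the most Cd3 counts, was lowest, and the tumours on 0.86% lay between them. The log2 ratio averaged -2.26 ± 1.74 on 0.172% (SD, n = 6) and -2.35 ± 0.763 on 0.86% (SD, n = 4), a difference of 0.09 (two-sided exact permutation test over 210 splits, p = 0.886). Against the summed Cd8a and Cd8b1 counts the difference was 0.25 (exact permutation p = 0.819), and both gave 0.886 after adjustment over the 2 ratios. The direction changed with the tumour left out, from -0.39 without tumour 17 to 0.63 without tumour 18 for the Cd3 ratio.

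**Figure D3:**
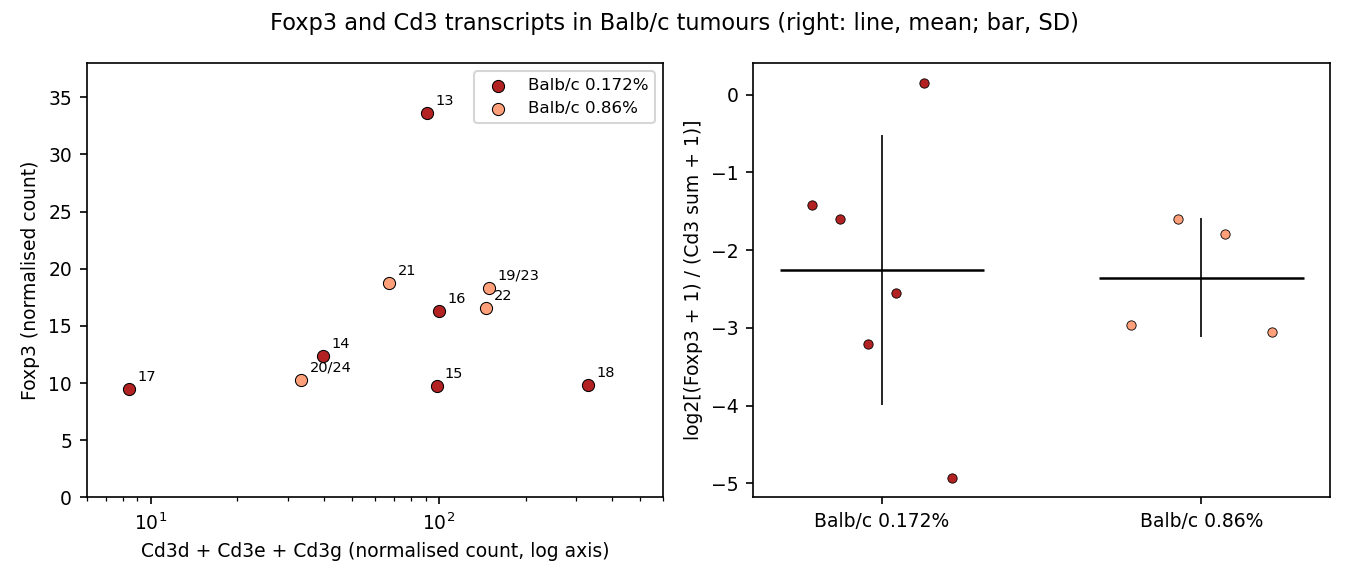
Left, Foxp3 against the summed Cd3d, Cd3e and Cd3g normalised counts (log x axis) in the 10 Balb/c tumours, labelled by tumour number; right, log2 ratio of Foxp3 to the Cd3 sum by diet, with mean (line) and SD (bar). Foxp3 stays between 9.47 and 18.8 in 9 tumours while the Cd3 sum runs from 8.42 to 329, and tumour 13 lies apart at 33.6.

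The members were also set against each other within Balb/c tumours. Correlations were taken over the 10 Balb/c tumours after subtracting the mean of each diet group, which share depth and tissue make-up, and are descriptions only. Foxp3 and Tnfrsf4 had a Pearson r of 0.73 and a Spearman rho of 0.42, and r was 0.10 without tumour 13. With Tnfrsf18 Foxp3 had an r of 0.56, with Tnfrsf9 0.33, with Il2ra 0.22, and with Cd3e 0.25. With Ikzf2 its r was 0.32, and -0.05 without tumour 13. With Ikzf4 it was 0.00 and with Ccr8 -0.45. The lowest r between members was -0.50, for Il2ra and Ikzf4. The 5 genes most like Foxp3 among 18413 were S1pr2 (0.97), Sugt1 (0.96), Nr5a1 (0.94), Pls1 (0.91) and Ash2l (0.90), and no other member was among them. Without tumour 13 the r of these 5 was 0.89, 0.93, 0.79, 0.81 and 0.91, in the same order. Picking the highest of 18413 values over 10 tumours by itself gives a high r. The 5 most like Ccr8 were Zfp521 (0.97), Tmeff1 (0.97), Rtn4rl2 (0.97), Zfp618 (0.96) and Grb10 (0.96), a pattern that rests on a gene with at most 4.90 normalised counts.

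**Figure D4:**
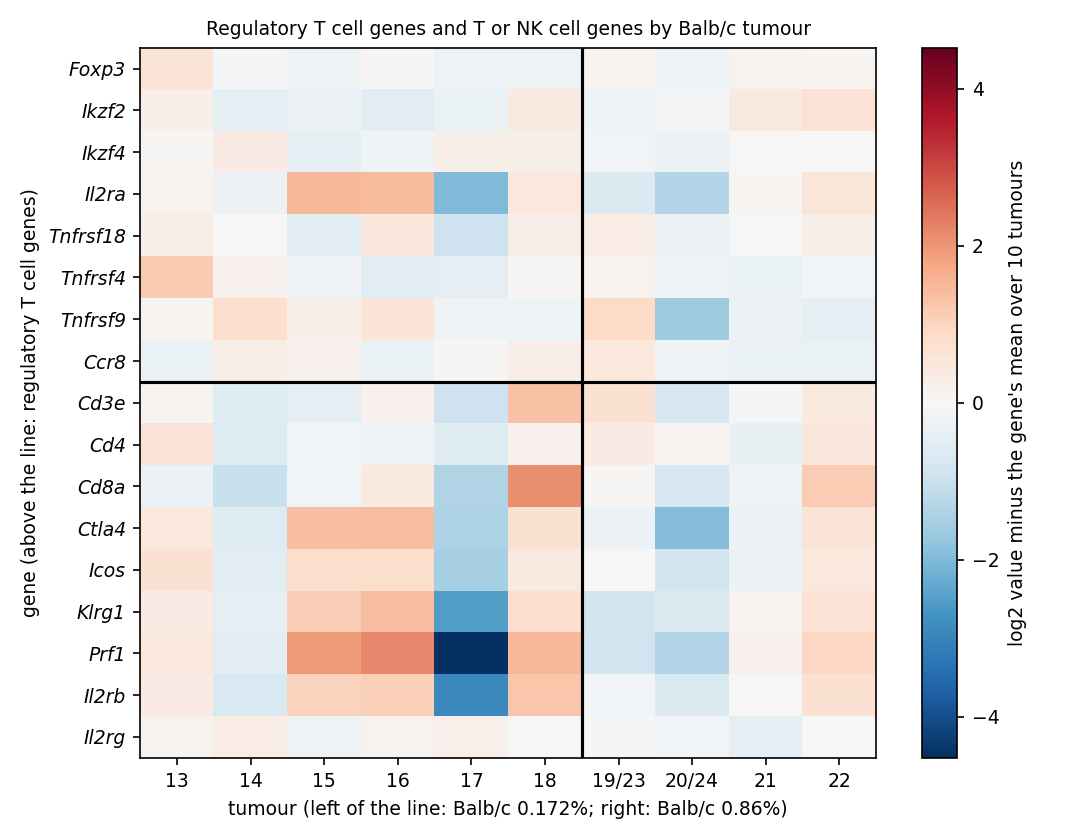
Log2 value minus the gene's mean over the 10 Balb/c tumours (colour scale) for the 8 regulatory T cell genes (above the line) and 9 T or NK cell genes or receptor chains (below); columns are tumours, 0.172% methionine left of the line and 0.86% right. Tumours 15 and 16 are high and tumour 17 is low for Il2ra, Ctla4, Icos, Klrg1, Prf1 and Il2rb, whereas Foxp3 and Tnfrsf4 are highest in tumour 13.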

How the data were processed

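RNA of CT26.WT grafts was measured in 24 libraries. STAR, featureCounts, DESeq2 and the mm10 build were used by the authors, according to the submitters' processing notes, which state no versions. The deposited log2 values run from a floor of 4.0711, a count of 0, to 19.3186, and have the form of the variance-stabilising transformation of the authors' DESeq2, judged from the values. Inverting it gave whole counts for 100% of the 640012 values above the floor (tolerance 0.05). Normalised counts printed here are these counts over the recovered size factors. The labels name a stranded ribosomal depletion kit in one place and poly(A) enrichment in another, so strand is unsettled. Among 55228 lines, 26 had a date where a gene name belongs and were dropped.

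The deposited log2 values were tested with limma 3.58.1 (R 4.3.3, statmod 1.5.0), fitting 1 mean per group, with eBayes (trend and robust options), two-sided, with Benjamini-Hochberg adjustment over 38019 genes; the code was tested on simulated data. Ratios used exact permutation. Python 3.11.15, pandas 2.3.3, scipy 1.17.1 and matplotlib 3.10.9 did the rest. Coordinates are from GENCODE M21 (53543 of the 55202 names matched). Near-identical libraries were averaged; alternatives kept them apart, used the first of each pair, changed filter, scale, normalisation or variance model, or left out each tumour.

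The members and lists were chosen with earlier results of these data known. Named genes are the members and ligands, and up to 4 per other list with the smallest adjusted p among host calls. Also named are the 5 genes most like Foxp3 and Ccr8 (mean of at least 10 normalised counts, no predicted models). Cd3e, Cd4, Cd8a, Il2rg and epithelial markers that bear on the colon carcinoma label complete the rule. One gene that this rule names is not reported here. Intervals and the limit of 3 counts cover sampling only.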

Additional observations from a re-analysis of the deposited data

Results flagged for a closer look

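Foxp3 in tumour 13 (Balb/c, 0.172% methionine) lay apart from its group, at 5.97 on the deposited log2 scale (33.6 normalised counts), against 5.13 to 5.44 (9.47 to 16.3 normalised counts) in the other 5 tumours. Its gap to the nearest tumour was 0.631 of the group's range, against a 95% critical value of 0.625 by Dixon's test. This was 1 of 36 such tests over the members and ratios. The tests of Ccr8 in both NSG groups could flag nothing, since every value there was a count of 0. Among the others chance flags about 1 in 20. Without tumour 13 the Foxp3 host difference on 0.172% methionine was 0.69 (limma adjusted p = 0.00531). Tumour 13 also had the highest Tnfrsf4, at 145 normalised counts.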

How the results depend on the processing

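No paired analysis was possible because the labels number the libraries 1 to 24 without a shared number between groups. Foxp3 and Tnfrsf18 were called between hosts on both diets, and Il2ra on 0.172% methionine, under each of 34 alternatives run. For 0.86% methionine 5 members were called with all 24 libraries kept apart, and leaving out each tumour gave 2 to 4; for 0.172% methionine leaving out each tumour gave 3 to 5. Under every alternative run, 0 members were called for either diet effect or their difference. Over all genes, hosts on 0.86% gave 963 calls, with 515 under no filter, 1824 with all 24 libraries kept apart, 1673 with library weights and 527 (without tumour 19/23) to 1146 (without 20/24) over tumours left out. Hosts on 0.172% gave 796, with 385 under no filter, 1394 with library weights and 512 (without tumour 4) to 1123 (without 19/23) over tumours left out. Diet in Balb/c hosts gave 1, with 112 when all 24 libraries were kept apart and 122 without tumour 18.

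Differences near 0 changed sign without being called. The Foxp3 per Cd3 ratio lay between -0.388 and 0.628 over the tumours left out, with -0.108 without tumour 19/23, and the Foxp3 per Cd8 ratio between -0.184 and 0.928. For diet in NSG hosts, Il2ra was 0.0269 with quantile normalisation and 0.00553 with library weights, and over tumours left out the ranges were -0.157 to 0.0078 for Foxp3, -0.0635 to 0.0763 for Il2ra, -0.218 to 0.0214 for Ikzf2, -0.254 to 0.0716 for Ikzf4 and -0.132 to 0.0755 for Tnfrsf18. For diet in Balb/c hosts they were -0.0598 to 0.274 for Tnfrsf4 and -0.256 to 0.0324 for Tnfrsf18 (-0.256 without 20/24, and at least -0.255 without any other). For the difference of the diet effects, Foxp3 was -0.0359 on the log2(normalised count + 10) scale and -0.102 to 0.093 over tumours left out (-0.0593 without 20/24), Tnfrsf4 0.0573 with library weights and -0.262 to 0.0717 (0.0509 without 19/23), and Tnfrsf18 -0.218 to 0.0858. Ikzf4 between hosts on 0.86% was 0.0209 with library weights and -0.0756 to 0.0493 over tumours left out (0.00667 without 19/23, 0.0493 without 20/24, and at most 0.0368 without any other). The cause was not tested. Few counts limit Foxp3 in NSG tumours and Ccr8 throughout.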

Other observations

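The correlation of Il2ra with 3 genes of the list of other regulatory T cell genes (Ctla4, Icos and Klrg1) and with T and NK cell genes was taken over the 10 Balb/c tumours. These genes were chosen after their values were seen, and the values are descriptions over tumours that share depth and tissue make-up, with the diet means subtracted. Prf1 (perforin, a pore-forming protein of NK and cytotoxic T cells) had a Pearson r of 0.96 and a Spearman rho of 0.95 with Il2ra and ranked at place 12 among 18413 genes. Klrg1 had an r of 0.96, Ctla4 of 0.94 and Icos of 0.92, at places 15, 40 and 71. Other T and NK cell genes were lower, with an r of 0.83 for Ncr1 (place 245), 0.61 for Cd8a (place 1669) and 0.49 for Cd3e (place 3020), and Foxp3 had an r of 0.22, at place 6122. Without tumour 17, r was 0.95 for Prf1, 0.93 for Klrg1, 0.93 for Ctla4, 0.82 for Icos, 0.60 for Ncr1, 0.46 for Cd8a, 0.25 for Cd3e and 0.01 for Foxp3.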
